A study of Homo sapiens with 6 samples.

Results

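The genes described here are 45 lineage basic helix-loop-helix (bHLH) genes, listed by symbol for their known roles in development, out of the 56638 genes in the count table. They were read in ChIP-seq libraries of G401, a malignant rhabdoid tumor (MRT) cell line with SMARCB1 deficiency. The cells had received either DMSO or 3 µM MAK683 over 3 days. MAK683 is a compound that binds the EED subunit of PRC2 and so blocks the methylation of H3K27. Both groups are the same cell line without any other agent or allele, and all 6 libraries come from it, so what is measured holds for these cells. Each treatment had a single library for H3K27me3, for H3K4me3 and for input, which is sonicated chromatin sequenced without an antibody. No value therefore has a replicate check and no p-value is given.

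bHLH factors bind E-boxes in DNA as dimers, usually a tissue-restricted member with a broadly expressed partner such as TCF3, TCF4 or TCF12. Proneural, myogenic and mesodermal members start the differentiation of their lineages, ID proteins, which lack a DNA-binding region, sequester their partners, and HES and HEY proteins are repressors that act downstream of Notch. Many of these genes are classical Polycomb targets in cells of other lineages, where H3K27me3, the mark made by PRC2, covers the whole short gene, while H3K4me3 marks the region around an active or poised start site.

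The library totals lay between 13308099 and 21281877 counts, so that the smallest level the depth can show, 3 counts, was between 0.141 and 0.225 CPM (counts scaled to the library total). SMARCB1, named as the check of the cell line because G401 is deficient in it, had 0 input counts in either treatment. Its only counts were 2 of H3K4me3 with DMSO and 4 of H3K27me3 with MAK683. Of the 45 genes, 41 had counts. OLIG2, MSC, FERD3L and HES6 were at 0 in all libraries, so that nothing can be said of them. In the annotation the whole span of each is overlapped by another gene. NEUROG1 and NEUROD1 had counts although only 0% and 1.29% of their spans were unshared, and the reason for the zeros was not tested. NEUROG1, NEUROD1, BHLHE41, HAND2, TCF21 and ID2 shared over 50% of their span with another annotated gene, and their counts are uncertain. Input counts of the 41 genes ranged from 1 (NEUROD1) to 1094 (TWIST1, whose annotated span is 96.6 kb) in DMSO, with a median of 32. The level of a mark is given as the ratio of its CPM to the input CPM of the same treatment. This takes gene length out for a mark that covers the whole gene. H3K4me3 lies around the start site, so its level can still depend on length and is not directly comparable between short and long genes. The change of a mark is the ratio of CPM in MAK683 to CPM in DMSO. Both have a pseudocount of 0.05 CPM and require a mean of 10 counts in the 2 libraries compared. The deposited counts carry no spike-in scaling, so levels and changes are relative to the library and not absolute amounts. The paper, whose methods describe a spike-in, reports a massive loss of H3K27me3 across the genome after MAK683. Levels over input in MAK683 therefore do not show how much of the mark remained. The share of a gene's counts that lies in MAK683 is printed with an exact 95% interval (Clopper-Pearson) for counting error alone. The library totals themselves put 41.0% of H3K27me3 and 48.0% of H3K4me3 counts in MAK683.

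Start-site sequences of 34 of the 45 genes were found in the RefSeq table (GRCh38.p14). Those of 6 genes are shown because they span the combinations of the marks described below. They are the 250 bases before the start, 5′ to 3′, with each CpG dinucleotide in capitals, since H3K4me3 is known to sit at CpG-rich starts. ID3 (chr1:23559502-23559751, minus strand) carried H3K4me3 with hardly any H3K27me3, NEUROG2 (chr4:112516181-112516430, minus strand) and HAND1 (chr5:154478228-154478477, minus strand) carried both marks, ATOH1 (chr4:93828503-93828752, plus strand) carried H3K27me3 in DMSO and had more H3K4me3 in MAK683, and NEUROD6 (chr7:31340727-31340976, minus strand) and MYF6 (chr12:80707384-80707633, plus strand) carried H3K27me3 without H3K4me3.
ID3: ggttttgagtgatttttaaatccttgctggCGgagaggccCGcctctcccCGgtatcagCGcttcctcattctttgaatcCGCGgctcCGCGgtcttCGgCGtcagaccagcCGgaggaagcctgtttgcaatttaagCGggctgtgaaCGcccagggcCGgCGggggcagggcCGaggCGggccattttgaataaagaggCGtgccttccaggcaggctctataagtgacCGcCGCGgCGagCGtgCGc
NEUROG2: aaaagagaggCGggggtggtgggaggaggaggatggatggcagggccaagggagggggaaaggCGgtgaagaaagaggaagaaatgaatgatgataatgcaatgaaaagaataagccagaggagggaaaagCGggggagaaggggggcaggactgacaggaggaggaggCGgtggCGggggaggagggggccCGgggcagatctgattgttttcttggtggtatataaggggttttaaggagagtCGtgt
HAND1: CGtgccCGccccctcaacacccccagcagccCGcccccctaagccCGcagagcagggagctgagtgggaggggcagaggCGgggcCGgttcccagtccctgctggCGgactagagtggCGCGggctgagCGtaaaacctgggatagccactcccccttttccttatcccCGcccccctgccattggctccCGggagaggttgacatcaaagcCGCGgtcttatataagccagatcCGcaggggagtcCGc
ATOH1: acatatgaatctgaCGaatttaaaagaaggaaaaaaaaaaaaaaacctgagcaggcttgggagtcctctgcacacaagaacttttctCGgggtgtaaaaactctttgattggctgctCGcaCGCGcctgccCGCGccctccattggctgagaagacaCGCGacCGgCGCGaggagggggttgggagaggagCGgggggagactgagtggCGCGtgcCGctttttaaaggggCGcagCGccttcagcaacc
NEUROD6: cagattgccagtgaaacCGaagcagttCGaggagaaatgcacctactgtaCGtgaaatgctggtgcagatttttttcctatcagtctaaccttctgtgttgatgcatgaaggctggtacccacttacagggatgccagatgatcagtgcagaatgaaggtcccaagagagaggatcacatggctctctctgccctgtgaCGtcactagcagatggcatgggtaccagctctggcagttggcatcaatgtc
MYF6: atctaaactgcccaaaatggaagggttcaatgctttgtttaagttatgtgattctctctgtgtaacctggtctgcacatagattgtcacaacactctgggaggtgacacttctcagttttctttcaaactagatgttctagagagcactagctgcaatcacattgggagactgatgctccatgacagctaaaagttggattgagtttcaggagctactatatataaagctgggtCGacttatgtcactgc

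These windows hold 24 CpG dinucleotides at ID3, 7 at NEUROG2, 16 at HAND1, 18 at ATOH1, 4 at NEUROD6 and 1 at MYF6. Over the 35 start sites of the members, TAL1 having 2 of them, the median was 18, against 11 for all 35116 start sites in the table. Where the H3K4me3 level in DMSO was at least 2 times input, the median was 24 CpG (17 genes, range 6 to 35), and where H3K4me3 was below input it was 6 (7 genes, range 1 to 18). Across 30 members the CpG number and the H3K4me3 level had a Spearman rho of 0.44, and across 31 members the rho with the H3K27me3 level was -0.12. These are descriptions over genes of the same libraries, with the first start listed for TAL1. ATOH7 and NEUROG2, with 6 and 7 CpG, had high H3K4me3 levels and lie outside this pattern. At the other end HES5, NEUROG1 and BHLHE41, with 36, 30 and 26 CpG, had H3K4me3 levels under 2 times input. An E-box (CANNTG, which both strands read alike) was present in 57.1% of the member windows and in 61.8% of all windows. The N-box that HES proteins bind (CACNAG, either strand, which cannot match at the same position as an E-box) was present in 20% of the member windows and 32.0% of all windows.

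**Figure D1:**
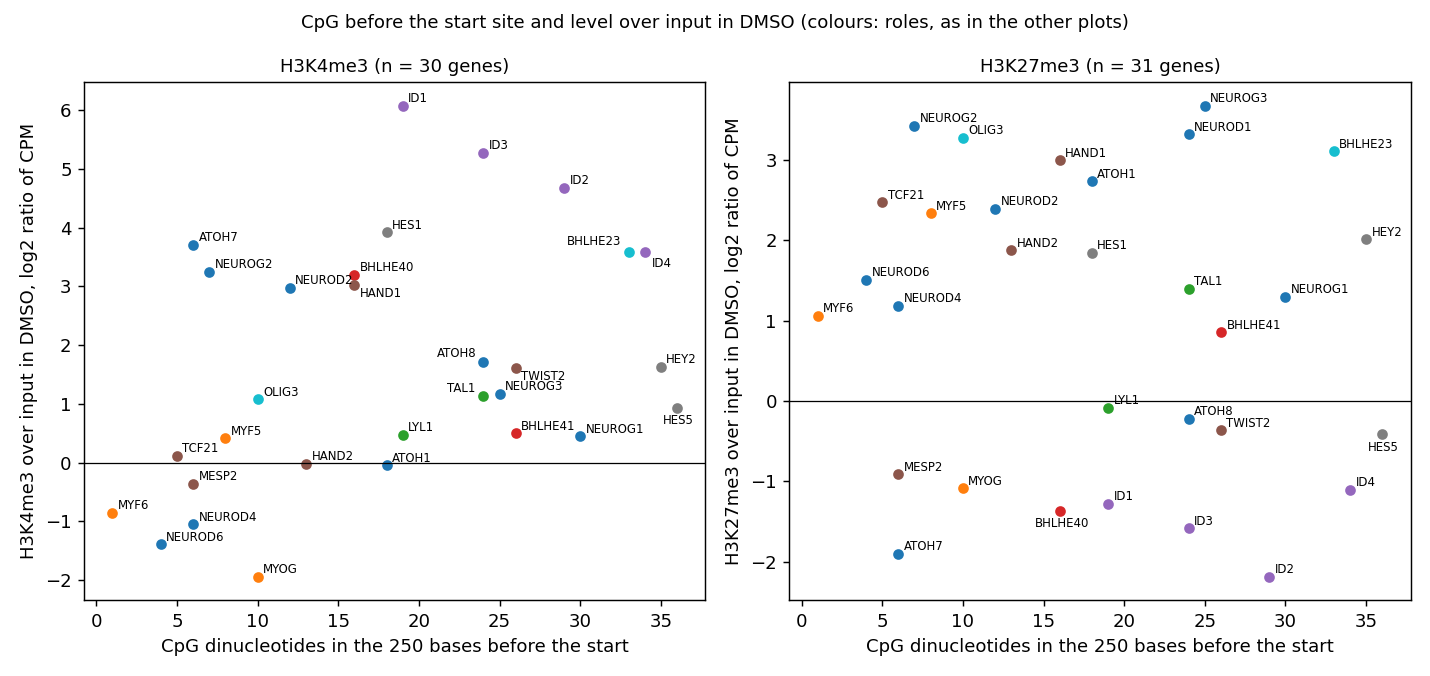
CpG dinucleotides in the 250 bases before the start (x axis, number) against the level over input in DMSO (y axis, log2 ratio of CPM) of H3K4me3 on the left (30 genes) and H3K27me3 on the right (31 genes). Each point is a gene and its colour is its role. The 7 genes with H3K4me3 below input hold at most 18 CpG, and H3K27me3 levels above and below input occur at both low and high CpG numbers.

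In DMSO, H3K27me3 was at least 2 times input at 24 of the 40 members with enough counts (60.0%), against 14.8% of all genes tested. The median member log2 level was 1.45, against -0.61 for all genes and -0.60 for protein-coding genes of at most 10 kb, a group closer to the members in length. Other developmental families lay lower, with medians of 0.76 for SOX (13 genes tested), 0.41 for FOX (45), -0.34 for TBX (12) and -0.56 for HOX genes (21). H3K4me3 was at least 2 times input at 21 of 39 members, against 24.5% of all genes and 49.3% of the short protein-coding genes. The median log2 H3K4me3 level of 1.14 in members stood beside 0.87 in the short genes, a much smaller gap than for H3K27me3.

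**Figure D2:**
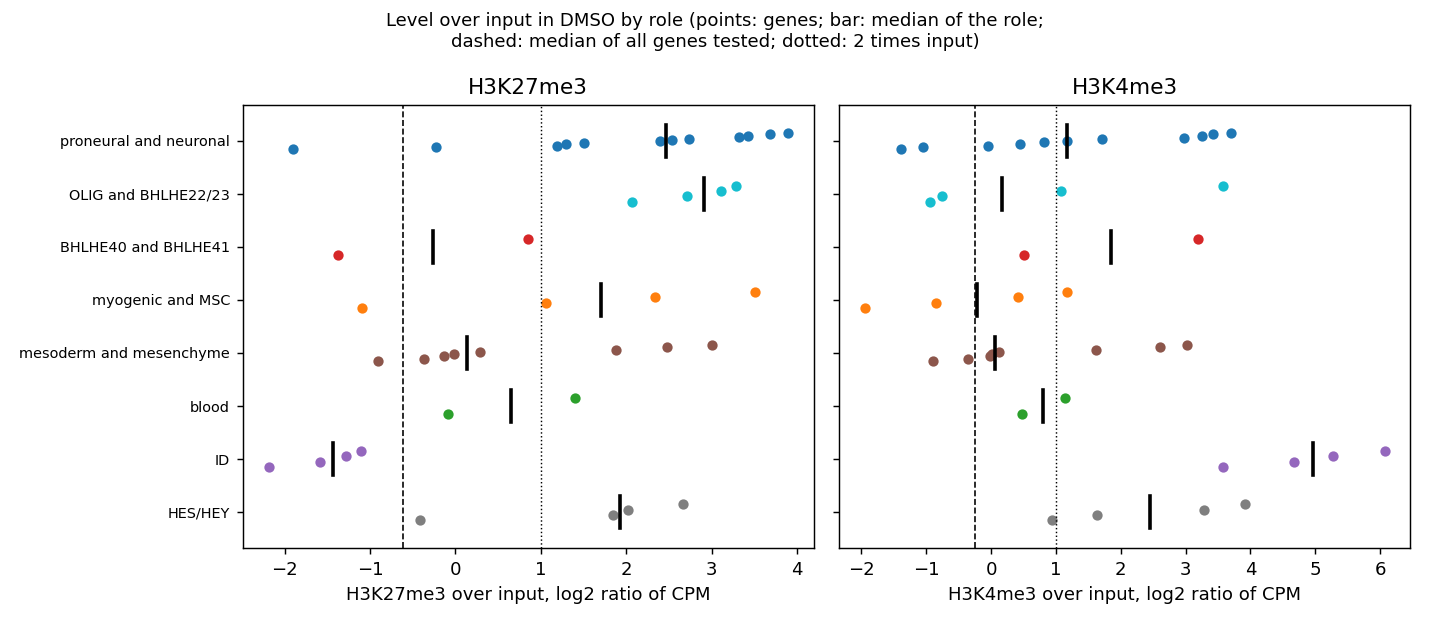
Level over input in DMSO (x axis, log2 ratio of CPM) of H3K27me3 on the left and H3K4me3 on the right, by role of the gene. Points are genes, black bars the median of the role, the dashed line the median of all genes tested and the dotted line 2 times input. The OLIG and proneural genes lie to the right for H3K27me3, and the median of the 4 ID genes is the lowest of the roles for H3K27me3 and the highest for H3K4me3.

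**Figure D3:**
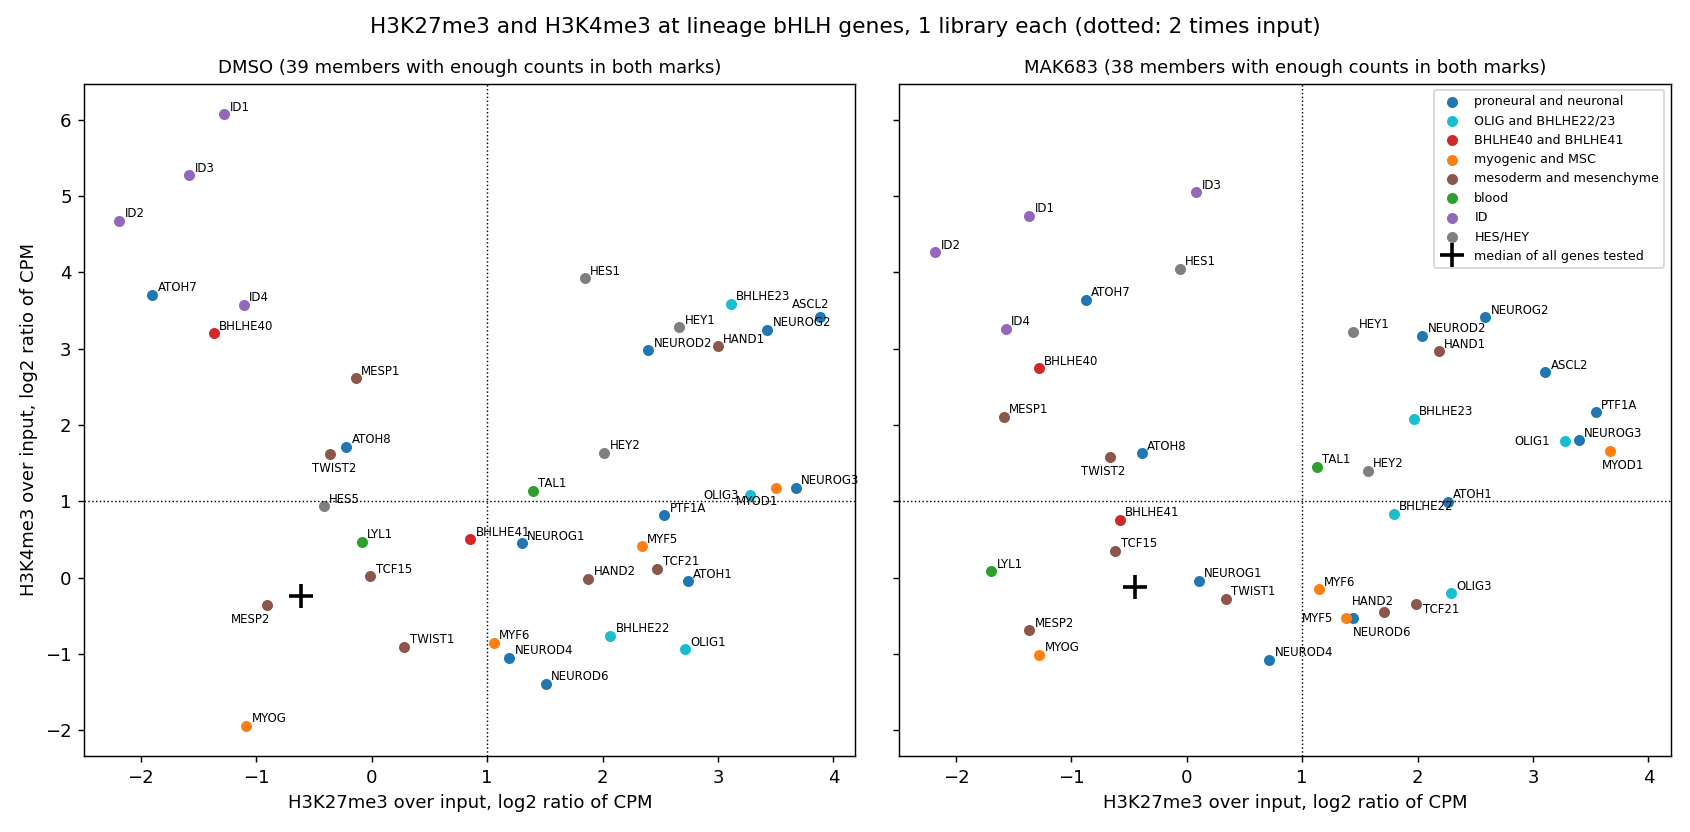
H3K27me3 level (x axis) against H3K4me3 level (y axis), both as log2 ratio of CPM to input, in DMSO on the left and MAK683 on the right. Points are genes coloured by role, the cross is the median of all genes tested and dotted lines mark 2 times input. Both axes of a panel share 1 input library. HES1 moves from the upper right in DMSO to the upper middle in MAK683, and OLIG1 moves upward.

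The proneural and neuronal genes carried high H3K27me3, with 10 of 12 at least 2 times input and a median log2 level of 2.46. ASCL2, a factor of intestinal and trophoblast progenitors, had 367 H3K27me3 counts with DMSO and 252 with MAK683, and its input counts were 21 and 42. That is a level of 14.8 times input in DMSO, the highest of the members. NEUROG3, which starts the endocrine pancreas, stood at 12.8 times input and NEUROG2, a determinant of cortical and sensory neurons, at 10.8 times input. ATOH1, needed for hair cells and cerebellar granule cells, was at 6.67 times and PTF1A, of pancreas and inhibitory neurons, at 5.79 times. The differentiation factors NEUROD2, NEUROD6 and NEUROD4 were at 5.26, 2.85 and 2.28 times input. NEUROG1 was at 2.46 times input. NEUROD1 counts among the 10, but its 20 H3K27me3 counts stood over 1 input count in DMSO. The exceptions were ATOH8, with a broad expression pattern, at 0.857 times input, and the retinal factor ATOH7 at 0.268 times input.

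H3K4me3 divided these genes. NEUROD2, NEUROG2 and ASCL2 had H3K4me3 at 7.88, 9.49 and 10.7 times input in DMSO beside their H3K27me3, and NEUROG3 had 2.26 times. In NEUROD2 this rested on 794 H3K4me3, 477 H3K27me3 and 79 input counts. NEUROD6, NEUROD4 and ATOH1 showed 0.381, 0.483 and 0.968 times input, so they carried H3K27me3 with H3K4me3 at or below input. ATOH7 was the reverse, with 376 H3K4me3 counts against 6 of H3K27me3 and 22 of input, a level of 13.1 times input. ATOH8 had 2216 H3K4me3 counts, 3.28 times input over a span of 40.0 kb. PTF1A and NEUROG1 lay between, at 1.76 and 1.37 times input.

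After MAK683 the H3K27me3 counts of all 11 proneural genes tested were lower relative to the library, as were those of 11892 of 28474 genes tested. The median log2 change of the 11 was -0.16, and 2 genes, NEUROG1 and NEUROD1, passed 1.5 times, against 6.22% of all genes. NEUROG1 had 77 H3K27me3 counts with DMSO and 33 with MAK683 (log2 -0.69, share 30.0%, 95% interval 21.6 to 39.5%). NEUROD1 had 20 and 8 counts, and its interval of 13.2 to 48.7% takes in the 41.0% of the library. NEUROD2 had 477 H3K27me3 counts with DMSO and 232 with MAK683 (log2 -0.51, share 32.7%, 95% interval 29.3 to 36.3%), below its library but within 1.5 times of it. NEUROD6 had 154 and 79 H3K27me3 counts with DMSO and MAK683, and NEUROD4 had 318 and 173. The intervals of both also lay below 41.0%. ASCL2, ATOH1, PTF1A, NEUROG3, NEUROG2 and ATOH8 had log2 changes between -0.16 and -0.02. The intervals of these 6 genes all hold the share of the library. Except for ATOH8 they stood over input within the MAK683 libraries, at 8.62 times for ASCL2, 10.5 for NEUROG3, 11.6 for PTF1A and 6.01 for NEUROG2. These ratios are not absolute amounts of the mark. The input counts of PTF1A were 36 in DMSO and 19 in MAK683.

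H3K4me3 was at least 1.5 times higher at 3 of the 11 proneural genes tested, against 8.35% of all genes, 13.8% of protein-coding genes of at most 10 kb and 34.7% of such short genes with H3K27me3 at least 2 times input. ATOH1 had 22 H3K4me3 counts with DMSO and 57 with MAK683, 2.73 times higher relative to the library (log2 1.45, share 72.2%, 95% interval 60.9 to 81.7%). Its H3K27me3 counts were 142 and 94 and its input counts 18 and 28. H3K4me3 at ATOH1 was thus level with input in DMSO and 1.99 times input in MAK683. H3K27me3 at ATOH1 was at 4.79 times input within the MAK683 libraries. NEUROG2 had 177 H3K4me3 counts with DMSO and 298 with MAK683 (log2 0.86, share 62.7%, 95% interval 58.2 to 67.1%). Its input counts moved the same way, 14 and 27, and relative to input the log2 change was only 0.16. NEUROG3 had 47 H3K4me3 counts with DMSO and 76 with MAK683 (log2 0.80, share 61.8%, 95% interval 52.6 to 70.4%) and 0.63 relative to input. NEUROD6 had 22 and 29 H3K4me3 counts, and its interval of 42.2 to 70.7% holds the 48.0% of the library. The other proneural genes tested, NEUROG1, NEUROD2, NEUROD4, ASCL2, ATOH7, ATOH8 and PTF1A, had log2 H3K4me3 changes between -0.10 and 0.25, all with intervals that hold the share of the library. Relative to its lower input count PTF1A reached 1.35 on the log2 scale.

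The OLIG genes and their relatives BHLHE22 and BHLHE23 act in neural progenitors, oligodendrocytes and interneurons. All 4 with counts had H3K27me3 at least 2 times input in DMSO, with a median log2 level of 2.91. OLIG1, an oligodendrocyte factor in the annotation at chr21:34442447-34444719 (GRCh37, the build of the counts), showed the largest H3K4me3 change of the members. It had 12 H3K4me3 counts with DMSO and 65 with MAK683, 147 and 125 of H3K27me3, and 19 and 18 of input. H3K4me3 was thus 5.48 times higher relative to the library (log2 2.45, share 84.4%, 95% interval 74.4 to 91.7%). Its H3K27me3 was the other way round from most members, with a log2 change of 0.29 and a share of 46.0% (95% interval 39.9 to 52.1%), whose interval holds 41.0%. In MAK683 OLIG1 had both marks over input, 9.71 times for H3K27me3 and 3.46 times for H3K4me3.

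BHLHE22, a factor of cortical and spinal interneurons, had 16 H3K4me3 counts with DMSO and 42 with MAK683, 2.73 times higher (share 72.4%, 95% interval 59.1 to 83.3%). Its H3K27me3 counts were 108 and 56 (log2 -0.42) and its input counts 22 and 23. OLIG3, of dorsal neural tube progenitors, had 218 and 156 H3K27me3 counts and a share of 41.7% (95% interval 36.7 to 46.9%), level with its library. Its H3K4me3 counts were 52 and 40 while input went from 19 to 46. OLIG3 thus had a log2 H3K4me3 change of -0.26, with an interval of 33.2 to 54.2% that holds 48.0%. At BHLHE23 H3K4me3 was lower by at least 1.5 times, with 224 counts with DMSO and 131 with MAK683 (log2 -0.65, share 36.9%, 95% interval 31.9 to 42.2%), and its level went from 12.0 to 4.24 times input. Of the 4 genes, OLIG1 and BHLHE22 had H3K4me3 changes above 0, and OLIG3 and BHLHE23 below 0.

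**Figure D4:**
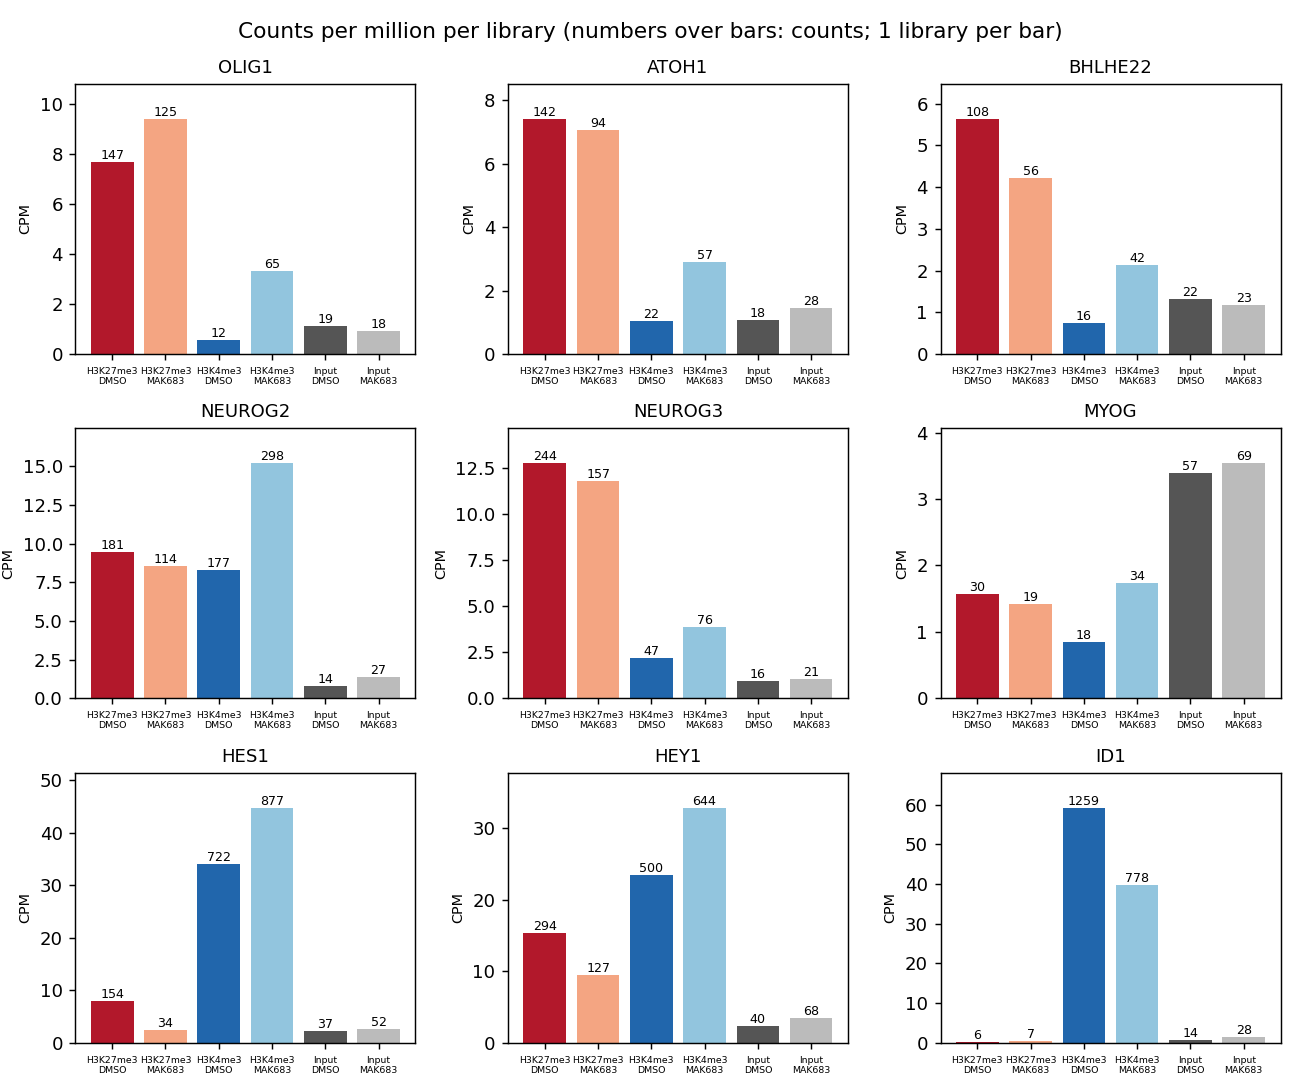
CPM (y axis, starting at 0, with its own scale in each panel) of 9 members in each of the 6 libraries, with the counts printed over the bars. Each bar is 1 library, so there are no error bars. The MAK683 H3K4me3 bar is higher than the DMSO bar at OLIG1 (12 and 65 counts), ATOH1, BHLHE22, NEUROG2, NEUROG3 and MYOG, and the H3K27me3 bar of HES1 is lower in MAK683 (154 and 34 counts).

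Of the myogenic genes, MYOD1 and MYF5, which commit cells to skeletal muscle, had H3K27me3 at 11.3 and 5.06 times input in DMSO, and MYF6, the neighbor of MYF5 on chromosome 12, 2.08 times. MYOG, which acts later during muscle differentiation, was at 0.470 times input, so it was not among the H3K27me3-marked genes. MYOD1 had 358 H3K27me3 counts with DMSO and 267 with MAK683, a share of 42.7% (95% interval 38.8 to 46.7%), and in MAK683 its level of 12.7 times input was the highest of the members. Its H3K4me3 counts were 78 and 97 (log2 0.43, share 55.4%, 95% interval 47.7 to 62.9%), with an interval that just holds 48.0%. MYF5 had 119 and 63 H3K27me3 counts and 34 and 24 of H3K4me3, and MYF6 had 84 and 46 and 24 and 27. None of these 4 changes left the share of its library. MYOG had 18 H3K4me3 counts with DMSO and 34 with MAK683 with 57 and 69 input counts (log2 0.99, share 65.4%, 95% interval 50.9 to 78.0%). Its H3K4me3 level remained below input in MAK683, at 0.497 times, so both values lie under input.

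The mesodermal and mesenchymal genes were split, with 3 of 8 at least 2 times input for H3K27me3. HAND1, a factor of heart and trophoblast at chr5:153854532-153857787 (GRCh37), had both marks, 343 H3K27me3 and 389 H3K4me3 counts over 37 input counts in DMSO. In MAK683 these were 188, 477 and 60, shares of 35.4% (95% interval 31.3 to 39.6%) for H3K27me3 and 55.1% (95% interval 51.7 to 58.4%) for H3K4me3. H3K27me3 at HAND1 was thus below and H3K4me3 above its library, each within 1.5 times. Relative to input the H3K4me3 change at HAND1 was -0.07, so its direction turns with the scale. HAND2, of heart and limb, and TCF21, of kidney and heart mesenchyme, had H3K27me3 at 3.67 and 5.56 times input. H3K4me3 at HAND2 was 45 counts with DMSO and 27 with MAK683 (log2 -0.60), and its interval of 26.4 to 49.7% holds 48.0%. TCF21 had 207 and 129 H3K27me3 and 44 and 37 H3K4me3 counts.

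TWIST1, an inducer of mesenchymal traits, had 739 H3K4me3 counts with DMSO and 1027 with MAK683 (log2 0.59, share 58.2%, 95% interval 55.8 to 60.5%), the most deeply counted H3K4me3 change past 1.5 times. Its H3K27me3 counts were 1516 and 1067 with a share of 41.3% (95% interval 39.4 to 43.2%), level with the library. TWIST2 had 1846 and 1687 H3K4me3 counts, 3.06 times input in DMSO, and H3K27me3 counts of 421 and 240 (log2 -0.28) below input. The paralogs thus differed, with H3K4me3 above input in DMSO at TWIST2 and below it, at 0.535 times, at TWIST1, although TWIST1 is read over a longer span. MESP1, of early cardiac mesoderm, had H3K4me3 at 6.11 times input and few H3K27me3 counts, 32 in DMSO and 10 in MAK683 (log2 -1.10, share 23.8%, 95% interval 12.1 to 39.5%). Its neighbor MESP2 had 140 and 90 H3K27me3 and 229 and 212 H3K4me3 counts, below input in both treatments. TCF15, of somites, had 114 H3K27me3 counts with DMSO and 50 with MAK683 (log2 -0.66, share 30.5%, 95% interval 23.5 to 38.1%) from a level equal to input.

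Among the blood genes, TAL1, a regulator of blood stem cells, had H3K27me3 at 2.63 and H3K4me3 at 2.20 times input in DMSO. Its H3K27me3 counts of 448 and 232 gave a log2 change of -0.42 and a share of 34.1% (95% interval 30.6 to 37.8%), and its H3K4me3 counts were 415 and 429. LYL1, its close relative, had 45 and 16 H3K27me3 counts (log2 -0.94, share 26.2%, 95% interval 15.8 to 39.1%) over input counts of 42 and 78, and 74 and 83 of H3K4me3. TAL2 had at most 13 counts in any library, 13 and 2 for H3K27me3, and is not placed.

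The ID genes had H3K27me3 the other way round from most of the proneural genes. In DMSO all 4 ID genes had H3K27me3 below input and H3K4me3 far above it. H3K4me3 did not separate the groups in the same way. It was at least 2 times input at 6 of 11 proneural genes, against 24.5% of all genes. ID1 (GRCh37 chr20:30193086-30194318) had 1259 H3K4me3, 6 H3K27me3 and 14 input counts, an H3K4me3 level of 67.2 times input and the highest of the members. ID3, ID2 and ID4 were at 38.5, 25.6 and 11.9 times input. The H3K4me3 share of 3 of them lay below that of the library. ID1 had 1259 H3K4me3 counts with DMSO and 778 with MAK683 (log2 -0.58, share 38.2%, 95% interval 36.1 to 40.3%), just short of 1.5 times. ID2 had 1416 and 981 (log2 -0.41) and ID3 1404 and 995 (log2 -0.38), and ID4, with 283 and 278, kept the share of the library. In MAK683 their H3K4me3 levels lay between 9.57 and 33.0 times input. ID3 was also the member whose H3K27me3 was higher, 10 counts with DMSO and 21 with MAK683 (log2 1.51, share 67.7%, 95% interval 48.6 to 83.3%). This is 11 counts more and ended level with input, at 1.06 times.

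HES1, the repressor through which Notch holds cells undifferentiated, showed the largest H3K27me3 change of the members with enough counts. At chr3:193853937-193856521 (GRCh37) it had 154 H3K27me3 counts with DMSO and 34 with MAK683, with 37 and 52 of input. H3K27me3 was 3.10 times lower than in DMSO relative to the library (log2 -1.63, share 18.1%, 95% interval 12.9 to 24.3%). Its level went from 3.60 times input to 0.960 times, which is level with input. H3K4me3 counts at HES1 were 722 and 877 (log2 0.40, share 54.8%, 95% interval 52.4 to 57.3%), at 15.1 and 16.5 times input. HES1 is shown with its start because RBPJ, the DNA-binding partner of Notch, is known to act there. In the 250 bases before the start (chr3:194135898-194136147, plus strand, GRCh38.p14, from RefSeq) the letters TGGGAA, in capitals, occur 2 times when both strands are searched, and the same core is present in 20.8% of all windows and in 20% of member windows.
HES1: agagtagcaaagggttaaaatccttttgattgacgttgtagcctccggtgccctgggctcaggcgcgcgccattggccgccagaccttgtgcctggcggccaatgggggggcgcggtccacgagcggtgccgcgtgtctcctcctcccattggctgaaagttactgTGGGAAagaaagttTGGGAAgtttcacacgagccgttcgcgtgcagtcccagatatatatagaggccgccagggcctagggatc

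HEY1 and HEY2, Notch effectors of blood vessels and heart, had both marks in DMSO. HEY1 had 294 H3K27me3 counts with DMSO and 127 with MAK683 (log2 -0.68, share 30.2%, 95% interval 25.8 to 34.8%) and 500 and 644 of H3K4me3 (log2 0.48, share 56.3%, 95% interval 53.4 to 59.2%). Relative to input the H3K4me3 change at HEY1 was -0.06, a turn in direction. Its H3K27me3 went the way of HES1 by a smaller amount, from 6.35 to 2.71 times input. HEY2 had 587 and 345 H3K27me3 counts, a share of 37.0% (95% interval 33.9 to 40.2%), and 500 and 453 of H3K4me3. HES5, the other Notch target active in neural progenitors, had few counts. Its H3K4me3 counts were 30 and 14 (log2 -0.94, share 31.8%, 95% interval 18.6 to 47.6%), and its 10 and 6 H3K27me3 counts stood beside 12 and 12 of input.

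BHLHE40 and BHLHE41, repressors of the clock and of the hypoxia response, were unlike each other. BHLHE40 had 867 H3K4me3 counts with DMSO and 638 with MAK683 (log2 -0.33, share 42.4%, 95% interval 39.9 to 44.9%) and H3K27me3 at 0.387 times input. BHLHE41 had 44 H3K27me3 counts with DMSO and 13 with MAK683 (log2 -1.19, share 22.8%, 95% interval 12.7 to 35.8%), from 1.81 to 0.668 times input. H3K4me3 at BHLHE41 was 38 and 50 counts.

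Over all members, H3K27me3 in MAK683 was at least 2 times input at 20 of 38 with enough counts, against 10.2% of all genes. Their median log2 level was 1.14 and that of all genes -0.45. H3K27me3 was at least 1.5 times lower relative to the library at 8 of 35 members, namely NEUROG1, NEUROD1, BHLHE41, LYL1, TCF15, MESP1, HES1 and HEY1, against 6.22% of all genes and 10.1% of the short protein-coding genes. It was higher at 1, ID3, against 10.4% of all genes. Of the 8, HES1, HEY1, NEUROG1 and NEUROD1 had been at least 2 times input in DMSO, and the other 4 had a level below that. The share interval lay under the share of the library at 14 members (40.0%), against 13.9% of all genes and 11.9% of the short protein-coding genes. It lay above at ID3 only, against 23.1% of all genes and 12.1% of the short protein-coding genes. The median member log2 change was -0.29 with 29 of 35 below 0. That of all genes was 0.09 with 11892 of 28474 below 0, and that of the short protein-coding genes 0.04 with 1481 of 3150. Changes below 0 were found at 10 of 13 SOX, 8 of 12 TBX, 27 of 45 FOX and 9 of 20 HOX genes. In counts as deposited, without the library totals, 28 of 35 members were at least 1.5 times lower, against 35.3% of all genes, and 1 was higher. OLIG1, OLIG3, BHLHE40, MYOD1 and TWIST1 had changes above 0 relative to the library but fewer counts in MAK683, so their direction turns with the scale.

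H3K4me3 in MAK683 was at least 2 times input at 22 of 40 members (55%), against 23% of all genes and 49.3% of the short protein-coding genes. OLIG1 and PTF1A reached that level in MAK683 and OLIG3 was under it. H3K4me3 was at least 1.5 times higher relative to the library at 7 of 39 members (17.9%), namely OLIG1, BHLHE22, ATOH1, MYOG, NEUROG2, NEUROG3 and TWIST1, against 8.35% of all genes and 13.8% of the short protein-coding genes. The part of genes that passed was larger than in the members for FOX (14 of 45), SOX (4 of 14) and TBX genes (3 of 12). It was smaller for HOX genes (3 of 23). H3K4me3 was at least 1.5 times lower at 3 members, BHLHE23, HAND2 and HES5, against 3.71% of all genes. The share interval was above the share of the library at 10 members, which adds HES1, HEY1 and HAND1, against 19.8% of all genes and 14.3% of the short protein-coding genes. Input counts of these 3 were also more in MAK683, and relative to input their log2 changes were 0.12, -0.06 and -0.07. The share interval was below at 6, ID1, ID2, ID3, BHLHE40, BHLHE23 and HES5, against 22% of all genes and 30.1% of the short protein-coding genes. The median member log2 change was 0.09, near the 0.00 of all genes, and it was -0.07 relative to input and -0.03 with the counts as deposited.

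**Figure D5:**
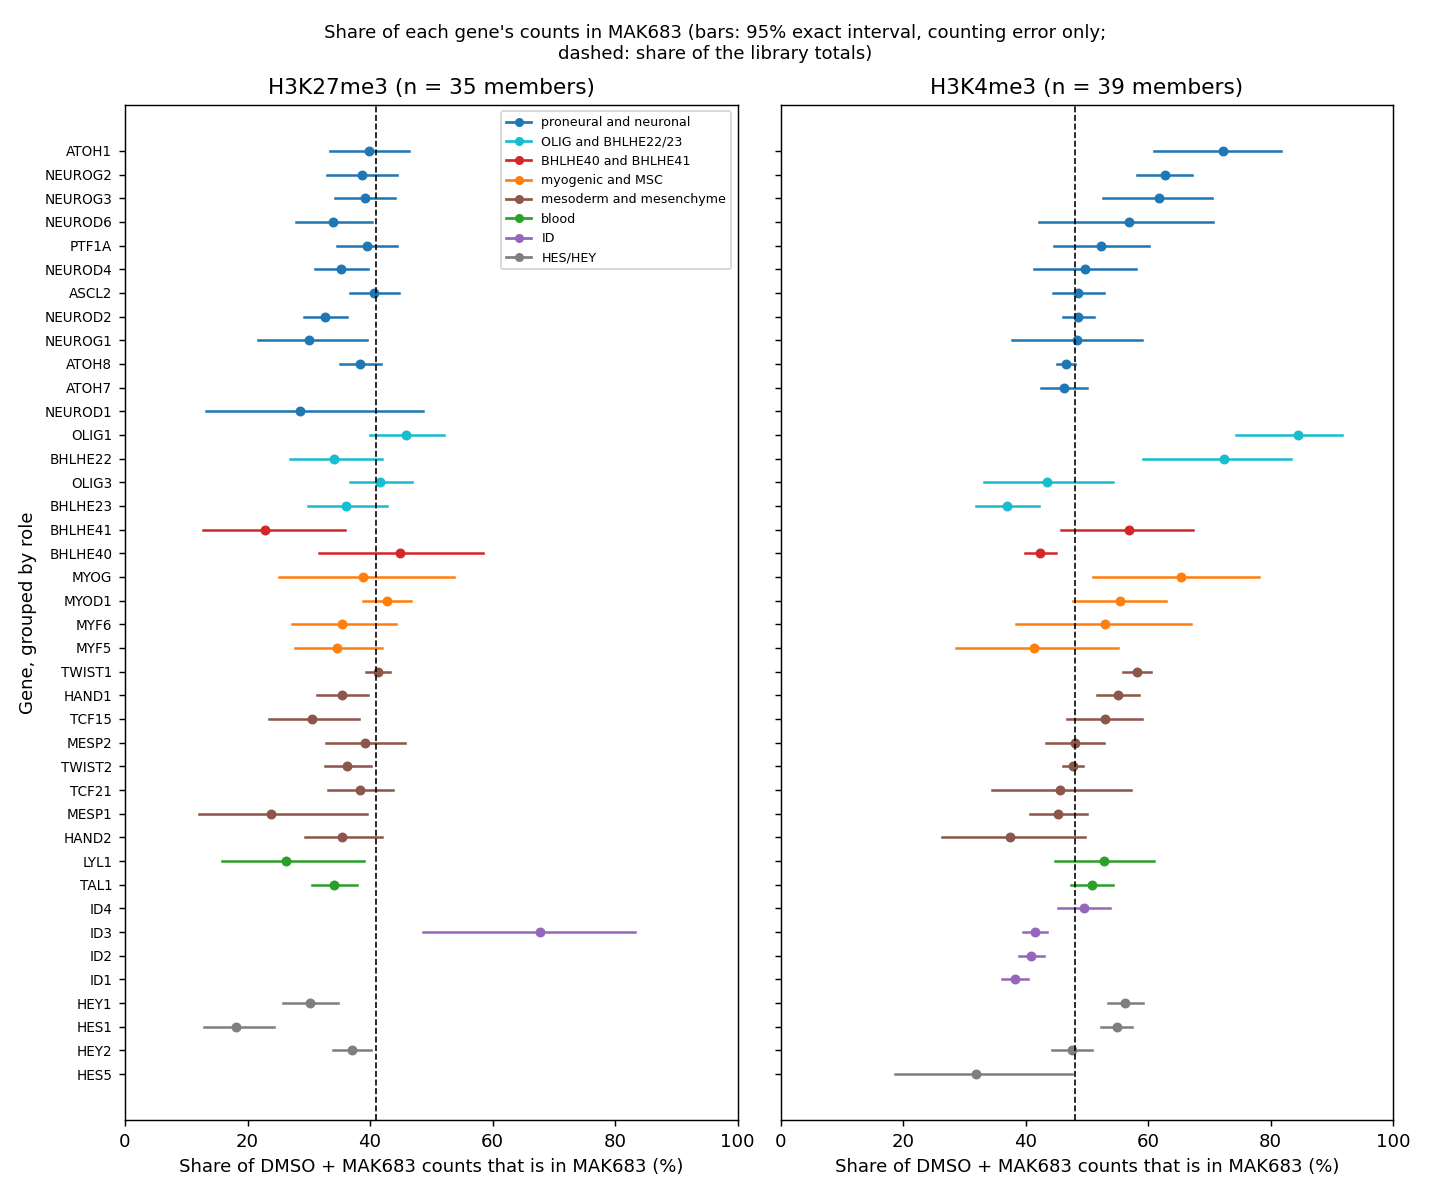
Share of each gene's DMSO and MAK683 counts that lies in MAK683 (x axis, %) for H3K27me3 on the left (35 members) and H3K4me3 on the right (39 members), by gene and role. Points are shares, bars the exact 95% interval from counting error alone, and dashed lines the share of the library totals. HES1 lies farthest to the left for H3K27me3 and OLIG1 farthest to the right for H3K4me3, while most intervals of H3K4me3 cross the line.

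Where the H3K27me3 level in DMSO was at least 2 times input, 5 of 23 members had H3K4me3 at least 1.5 times higher, with a median log2 change of 0.25 and a range from -0.65 to 2.45. All genes with that H3K27me3 level had a median of 0.21 and 20.6% of them passed 1.5 times, so the members were near all genes of that level. Short protein-coding genes of that level, closer to the members in length, lay higher, with a median of 0.35 and 34.7% passing. At the 14 members with H3K27me3 below input the median H3K4me3 change was -0.09 and 1, MYOG, passed. All genes with H3K27me3 below input had a median of -0.05 and 4.98% of them passed. Short protein-coding genes below input had a median of -0.14 and 7.81% passed, so these members were near other genes too. Across 39 members the H3K27me3 level in DMSO and the H3K4me3 change had a Spearman rho of 0.38, and across 27205 genes the rho was 0.36. Of the 34 members with enough counts for both changes, none had H3K4me3 at least 1.5 times higher and H3K27me3 at least 1.5 times lower. The share of all genes with both was not computed, so this is not read as a trait of the members. The 39 members with enough input counts had a median log2 change of input of 0.13 against 0.01 for all genes, and the part of input in these values was not tested.

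Genes around the bHLH network were read from lists set for this purpose. None of the 9 dimer partners and cofactors had H3K27me3 at least 1.5 times lower, against 6.22% of all genes. LMO2, which bridges TAL1 to other blood factors, was the 1 of 9 with H3K4me3 at least 1.5 times higher, against 8.35% of all genes. LMO2 had 811 H3K4me3 counts with DMSO and 1176 with MAK683 (log2 0.65) and 1789 and 856 of H3K27me3 (log2 -0.54). Of 20 Notch pathway genes, 3 had lower H3K27me3 (15%, against 6.22% of all genes). Of these, DLL1, a Notch ligand, also had higher H3K4me3. DLL1 had 519 H3K27me3 counts with DMSO and 233 with MAK683 (log2 -0.63, share 31.0%, 95% interval 27.7 to 34.4%) and 410 and 595 of H3K4me3 (log2 0.65, share 59.2%, 95% interval 56.1 to 62.3%). Only 34.9% of the DLL1 span is unshared with other annotated genes, so its counts are uncertain. Of 16 other tissue-restricted bHLH genes tested, none passed 1.5 times for H3K27me3 in either direction, against 6.22% of all genes lower and 10.4% higher. With lists this short, such counts are not read as a difference from all genes. HELT, of midbrain inhibitory neurons, had 283 H3K4me3 counts with DMSO and 498 with MAK683 (log2 0.93) while its input counts were 16 and 41. Its H3K4me3 level, as log2 ratio to input, went from 3.74 with DMSO to 3.56 with MAK683, so relative to input the direction turns. The median log2 H3K27me3 level in DMSO was 0.74 for these other bHLH genes, -0.67 for the Notch pathway and -0.72 for the partners, against 1.45 for the members.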

How the data were processed

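ChIP-seq counts of G401 cells were analysed for H3K27me3, H3K4me3 and input, 1 library each in DMSO and in MAK683. Per the submitters' processing notes and the methods, the authors trimmed reads (Trim Galore 0.4.4) and aligned to hg19 using Bowtie2. They used Picard 2.23.6 to remove what the methods call repeat sequences. The spike-in section of the methods speaks of reads left after duplicates were removed. Raw counts per gene from featureCounts were deposited for 56638 genes. The gene annotation and the counted part of a gene are not given in the sources used here. A Drosophila spike-in described in the methods is not part of these counts and was not applied. Totals were 13308099 to 21281877 counts.

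Counts were divided by library totals (CPM), and ratios on the log2 scale used a pseudocount of 0.05 CPM and genes averaging 10 counts or more in the libraries compared, without a test because each group has 1 library. Genes 2 times over input, or changed 1.5 times, were counted beside all genes. Intervals are exact Clopper-Pearson at 95% and, like the floor of 3 counts, cover counting error only. PCR duplicates, if any remain in the counts, are not independent molecules. Symbols linked all 45 members to the GRCh37 annotation (GENCODE release 44). All members are named, and of the context lists those past 1.5 times in H3K4me3 with a mean of at least 50 counts, of which 1 is not reported here. SMARCB1 is named as the check of the cell line. The members and lists were chosen with earlier results of these data known. The computation was tested on simulated counts. Alternatives were other scales, pseudocounts, count minimums, inputs, thresholds and genes with unshared span. Python 3.11.15, numpy 2.4.6, pandas 2.3.3, scipy 1.17.1 and matplotlib 3.10.9 were used.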

Additional observations from a re-analysis of the deposited data

How the results depend on the processing

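No paired analysis was possible because each treatment and antibody had 1 library, and for the same reason no library could be left out. Of 90 alternative values of the counts and medians, 71 stayed within 1.5 times or within the counting interval. The median H3K4me3 change of 0.09 turned to -0.03 with the counts as deposited and to -0.07 relative to input, and no other median or count changed sign. With the counts as deposited, the median H3K27me3 change was -0.81 and 28 members were at least 1.5 times lower. The 8 members with lower H3K27me3 became 5 with a pseudocount of 1 CPM, 4 with a minimum mean of 50 counts, 14 relative to input, 5 among genes with at least 50% unshared span and 3 at a threshold of 2 times. The 1 member with higher H3K27me3 became 3 without a minimum count, 0 with a minimum of 50 and 2 relative to input. The 3 members with lower H3K4me3 became 1 with a pseudocount of 1 CPM, 1 with a minimum of 50, 6 relative to input and 0 at 2 times. The 7 members with higher H3K4me3 became 3 with a minimum of 50 (NEUROG2, NEUROG3 and TWIST1) and 3 at 2 times (OLIG1, ATOH1 and BHLHE22). With a minimum of 50 the median level over input was 1.84 for H3K27me3 in MAK683, and 2.98 in DMSO and 2.14 in MAK683 for H3K4me3, since fewer genes were left. Other causes of these differences were not tested.

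One library per group limits every value to these cells and preparations. Input counts of many members were under 50, so levels over input and changes relative to input are imprecise. Genes overlapped by another gene had no counts or uncertain ones, and the values cover whole genes and not start sites.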

Other observations

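Within the Notch pathway list, the ligands DLL1, DLL3 and DLL4 were the 3 genes with H3K27me3 at least 1.5 times lower. They are 15% of the list, against 6.22% of all genes, and the counts of DLL1 are uncertain because of overlap. DLL4, a ligand of the vessel wall, had 238 H3K27me3 counts with DMSO and 91 with MAK683 (log2 -0.86, share 27.7%, 95% interval 22.9 to 32.8%) with 117 and 159 input counts, and 702 and 624 of H3K4me3 (log2 -0.05). DLL3, which acts in somites and neuroendocrine cells, had 155 H3K27me3 counts with DMSO and 70 with MAK683 (log2 -0.62, share 31.1%, 95% interval 25.1 to 37.6%) and 833 and 710 of H3K4me3 (log2 -0.11). DLL3 and DLL4 were singled out after their values were seen. Both had H3K4me3 over 3 times input in DMSO, and neither had the higher H3K4me3 of DLL1.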
